A study of Homo sapiens with 22 samples.

Results

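MDA-MB231 cells given the HDAC6 inhibitor HPOB were compared with cells given DMSO, the vehicle, both sampled at day 2. The comparison was set by the sample labels, which give 3 HPOB and 3 DMSO libraries, 6 of the 22 libraries in the series. All genes with at least 10 counts in at least 3 of these 6 libraries were kept, which left 15015 of 26485 gene symbols. MDA-MB231 is an established line from a human breast tumour of the triple-negative type, and all of these cells carry the label WT as their genotype. Another group of the same experiment, 3 libraries of cells given Tubastatin A, entered the fit so that the groups share 1 estimate of spread. The groups did not vary alike. Between libraries, chi-square per degree of freedom of the counts was 4.39 to 5.42 in DMSO and 43.5 to 53.1 in HPOB. In Tubastatin A it ran from 9.58 to 84.5. The shared spread, and each standard error (SE) from it, need not be that of any 1 group. The labels give no dose of HPOB or Tubastatin A. The labels do not say whether the replicates came from separate cultures, so the p-values measure the spread between these libraries, which may be technical. The series concerns HDAC6 in the chromatin of triple-negative breast cancer, and this comparison asks which mRNA levels differ when the enzyme's inhibitor is present.

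HDAC6 is a mainly cytoplasmic deacetylase that acts on tubulin, cortactin and chaperones, and HPOB and Tubastatin A are benzohydroxamates developed as selective inhibitors of it, which share the zinc-binding end and differ in the cap, a phenyl amide in HPOB and a carboline in Tubastatin A. Cancer cell lines of the mesenchymal type secrete chemokines and interleukins whose genes are controlled by NF-kB and AP-1, families of transcription factors that respond to cytokine receptors, stress and growth factor signalling. CXCL8 (interleukin 8) attracts neutrophils, IL1A is an alarmin that signals through the interleukin 1 receptor, IL24 is a cytokine of the interleukin 10 family, and TNFSF15 (TL1A) is a TNF family ligand of the receptor TNFRSF25.

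Total counts ran from 31238740 to 37362257 in DMSO, from 32102656 to 40929525 in HPOB and from 36906291 to 41261706 in Tubastatin A. The cells carried the markers of a mesenchymal breast cancer line: the 15 markers of that list summed to 8060 to 8142 CPM (counts relative to the library's total, scaled by TMM factors) in DMSO and 7717 to 8344 CPM in HPOB, while ESR1 reached at most 0.244 CPM and PGR was at 0 in all 6 libraries. That list also holds the epithelial keratins KRT8 (725 to 741 CPM in DMSO) and KRT18 (352 to 378 CPM), so its sum is not of mesenchymal genes alone. Leukocyte markers summed to 124 to 126 CPM in DMSO and 125 to 141 CPM in HPOB, nearly all of it CD68, and MS4A1 and FCGR3A were at 0 throughout. Fibroblast markers summed to 29.1 to 32.4 CPM against 31.6 to 37.8 CPM, and endothelial markers to 7.54 to 8.90 CPM against 7.49 to 8.39 CPM. HPOB replicates 2 and 3 stood apart by transcript length: short transcripts were relatively higher and long ones lower than in DMSO, which did not show in HPOB replicate 1, so results are given library by library. Luminal epithelial markers summed to 473 to 508 CPM in DMSO and 558 to 644 CPM in HPOB without overlap, most of it KRT19 (320 to 347 CPM against 396 to 457 CPM), and PGR and 1 other of the 12 were at 0. Its 8 tested members went both ways, 3 above DMSO and 2 below: MUC1, a mucin of luminal cells, stood at 10.2, 10.5 and 12.97 CPM in DMSO and 7.36, 7.90 and 6.56 CPM in HPOB, and GATA3, a luminal transcription factor, at 13.1, 14.3 and 15.5 CPM in DMSO and from 9.63 to 12.5 CPM in HPOB. The part of these markers in the results was not tested. In these bulk libraries, fewer cells of a type and less RNA per cell cannot be told apart.

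With HPOB, 4 genes rose and none fell past the threshold: CXCL8, IL1A, IL24 and TNFSF15, all of them genes of inflammatory ligands. They were 4 of 15015 genes tested (0.0266%) at a Benjamini-Hochberg adjusted p under 0.05 in edgeR's quasi-likelihood test, all 4 higher (0.0266%) and 0 lower (0%). IL1A rose by 4.11-fold, CXCL8 by 2.71-fold, IL24 by 2.48-fold and TNFSF15 by 1.69-fold. At an unadjusted p under 0.05, 1558 genes passed (10.4%), 916 higher (6.10%) and 642 lower (4.28%).

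The DNA upstream of the 4 genes is shown because NF-kB and AP-1 motifs are the known control elements of inflammatory ligands. The sequences are from RefSeq (GRCh38.p14) and read 5′ to 3′ on the gene's own strand. For CXCL8, IL24 and TNFSF15 they cover up to 250 bases before the RefSeq start, and for CXCL8 they stop where the gene in GENCODE release 29 begins. Capitals mark matches to NF-kB (GGNNTTTCC), AP-1 (TGANTCA) or C/EBP (TTGCNNAA) motifs, searched on both strands. The letters TATAAA, those of a core promoter box, were searched at any position on the gene's strand alone. The CXCL8 stretch lies at chr4:73740319-73740505 (plus strand), just upstream of the gene in GENCODE. IL1A has 2 starts in RefSeq, so 2 overlapping windows were searched, and it is shown by the 29 bases around the AP-1 match that both hold, at chr2:112784488-112784516 (minus strand), which lie in an untranslated exon of the GENCODE transcript. The IL24 stretch lies at chr1:206897193-206897442 (plus strand), directly upstream of the gene. The TNFSF15 stretch lies at chr9:114792531-114792780 (minus strand), in an intron of the GENCODE gene, because RefSeq's start in the table used here is 13596 bases downstream of the GENCODE start.
CXCL8: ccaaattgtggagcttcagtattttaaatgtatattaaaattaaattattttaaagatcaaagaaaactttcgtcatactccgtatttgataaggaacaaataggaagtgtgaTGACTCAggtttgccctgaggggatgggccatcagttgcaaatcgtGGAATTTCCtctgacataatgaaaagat
IL1A: gcgaagaagacTGACTCAggcttaagctg
IL24: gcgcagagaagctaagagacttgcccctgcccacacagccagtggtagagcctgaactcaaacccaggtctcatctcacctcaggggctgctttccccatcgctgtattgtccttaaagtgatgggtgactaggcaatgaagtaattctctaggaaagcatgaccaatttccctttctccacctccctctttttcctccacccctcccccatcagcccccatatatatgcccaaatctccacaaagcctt
TNFSF15: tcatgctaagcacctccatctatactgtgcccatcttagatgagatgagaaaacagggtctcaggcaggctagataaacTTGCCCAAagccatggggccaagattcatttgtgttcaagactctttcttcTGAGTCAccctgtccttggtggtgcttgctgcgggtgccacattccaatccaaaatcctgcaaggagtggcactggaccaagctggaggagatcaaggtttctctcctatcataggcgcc
The CXCL8 stretch holds an NF-kB match (GGAATTTCC, 91 to 83 bases before the RefSeq start) and an AP-1 match (TGACTCA, 137 to 131 bases before it), and a core promoter box lies 31 to 26 bases before the start, beyond the printed bases. It also holds ttgcaaat, which differs from the C/EBP letters in its last base and so was not counted as a match. The TNFSF15 stretch holds an AP-1 match (TGAGTCA, 120 to 114 bases before the start) and a C/EBP match (TTGCCCAA, 171 to 164 bases before it). The shown IL1A match lies 12 to 6 bases before one start and 105 to 99 before the other. A second AP-1 match (TGAGTCA) lies 55 to 49 bases before the latter start, and the letters TATAAA lie 239 to 234 bases before the former. The IL24 stretch holds none of these letters, which says nothing of the factors themselves. AP-1 letters were found in 3 of the 4 genes, with TNFSF15 counted by its intron window, and NF-kB letters in 1 of 4. The bases before the GENCODE start of TNFSF15 were not searched. Over all 35116 RefSeq promoters, single 250-base windows held an AP-1 match in 6.57%, an NF-kB match in 5.48%, a C/EBP match in 9.05% and the letters TATAAA in 6.80%. Over the 15748 promoters of tested genes these shares were 4.74%, 5.92%, 6.55% and 3.83%. Such matches describe the sequence, and binding was not measured.

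CXCL8 lies on chromosome 4 from 73740506 to 73743716 (GRCh38, plus strand). It stood at 78.6, 76.6 and 72.9 CPM in DMSO and 176, 244 and 198 CPM in HPOB. Every HPOB library was more than 2 times the highest DMSO library, with replicate 2 the highest. The log2 fold change was 1.44 ± 0.16 (SE) with an adjusted p of 0.0113 by edgeR's test.

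IL1A, on chromosome 2 from 112773915 to 112784590 (minus strand), was the least abundant of the 4 by CPM and changed the most. It stood at 1.31, 1.62 and 1.96 CPM in DMSO and 5.14, 6.65 and 8.19 CPM in HPOB. The lowest HPOB library was above the highest DMSO library by more than 2 times, and the log2 fold change was 2.04 ± 0.25 (SE) (edgeR, adjusted p = 0.0147).

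IL24, on chromosome 1 from 206897443 to 206904139 (plus strand), stood at 16.8, 19.7 and 16.3 CPM in DMSO and 36.2, 44.1 and 50.5 CPM in HPOB. The groups did not overlap, and the log2 fold change was 1.31 ± 0.18 (SE) (edgeR, adjusted p = 0.0213). TNFSF15, on chromosome 9 from 114784635 to 114806126 (minus strand), showed the smallest change of the 4. It stood at 25.1, 23.02 and 22.9 CPM in DMSO and 38.03, 41.4 and 40.5 CPM in HPOB, a log2 fold change of 0.76 ± 0.10 (SE) (edgeR, adjusted p = 0.0147). Its longest transcript has 6687 bases, against 1705 for CXCL8, 2124 for IL1A and 1819 for IL24.

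HPOB replicate 1, the library without the length shift, was higher than the DMSO mean for all 4: by 1.21 on the log2 scale for CXCL8, 1.64 for IL1A, 1.05 for IL24 and 0.68 for TNFSF15. The number of calls depended on the libraries. Without any 1 of the 3 DMSO libraries, or without HPOB replicate 2, 0 genes were called by edgeR (861, 928, 900 and 1448 genes had an unadjusted p under 0.05, for DMSO 1, 2, 3 and HPOB 2). Without HPOB replicate 3, 1 gene (CXCL8) was called, and without HPOB replicate 1 all 4 were. Without both HPOB replicates 2 and 3, 0 genes were called, 566 had an unadjusted p under 0.05, and the highest adjusted p of the 4 was 0.999. When Tubastatin A replicate 2, which had the same length shift, was also left out, 198 genes were called (1.32%), 151 higher and 47 lower, with the 4 among them. That fit has 1 HPOB library, which is assumed to vary like the other groups. When trends on GC content and transcript length were removed from each library, 14 genes were called (0.0932%), 13 higher and 1 lower. They included the 4, with CXCL2, IL6, IL11, RCAN1, ADAMTS6, KRT34, LAMB3 and SECTM1 higher and SAPCD2 lower. CXCL8 then had a log2 fold change of 1.25 ± 0.08 (SE), IL1A 1.93 ± 0.23, IL24 1.19 ± 0.13 and TNFSF15 0.89 ± 0.10.

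**Figure D1:**
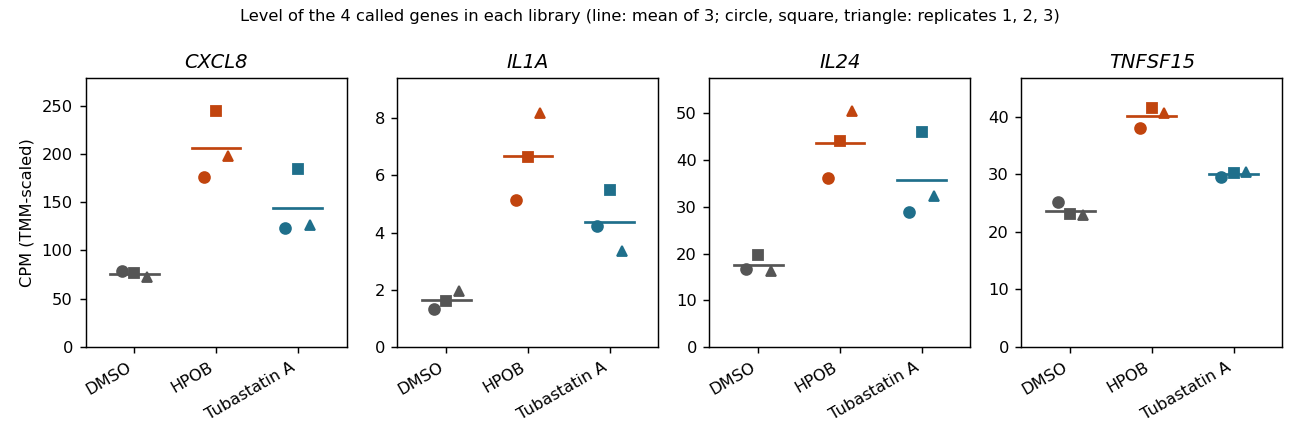
Level of CXCL8, IL1A, IL24 and TNFSF15 (CPM, linear axes from 0) in each of the 9 libraries, with circles, squares and triangles for replicates 1, 2 and 3 and lines at the mean of 3. All 3 HPOB libraries lie above all 3 DMSO libraries for each gene, and for TNFSF15 they also lie above the 3 Tubastatin A libraries.

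Between the compounds, 0 of 15015 genes were called (0%) in the direct test of HPOB against Tubastatin A by edgeR, and 460 (3.06%) had an unadjusted p under 0.05. The test compares the levels of the 6 libraries of these groups with a spread estimated over all 9, and the doses it compares are unknown. With these 2 groups fitted alone, 0 genes were called and 271 had an unadjusted p under 0.05. TNFSF15 stood at 29.6, 30.3 and 30.4 CPM with Tubastatin A, below every HPOB library, a difference of 0.41 ± 0.09 (SE) on the log2 scale with a 95% interval of 0.21 to 0.62 (edgeR, adjusted p = 0.994). CXCL8 stood at 123, 184 and 126 CPM with Tubastatin A, so that its replicate 2 overlapped the HPOB range, and the difference was 0.51 (95% interval 0.17 to 0.85). IL1A stood at 4.22, 5.50 and 3.36 CPM (difference 0.61, interval 0.11 to 1.12) and IL24 at 28.9, 46.02 and 32.3 CPM (difference 0.29, interval -0.08 to 0.66). None of the 4 passed the adjusted threshold in the fit of all 9 libraries, and the intervals do not show that the compounds act alike. The length shift was uneven between these groups, present in HPOB replicates 2 and 3 and in Tubastatin A replicate 2. Its part in these differences was not tested.

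Beyond the called genes, 1680 genes stood in all 3 HPOB libraries above all 3 DMSO libraries (11.2%) and 1592 stood below all of them (10.6%), 3272 in all (21.8%). These counts describe the libraries and carry no test. The median log2 fold change was 0.31 for the genes above and -0.27 for those below, and 130 and 68 of them passed 2-fold. The genes above had a median longest transcript of 2450 bases and the genes below one of 5267 bases, against 3535.5 bases over the 14098 tested genes with a known length. Median GC content was 51.6% for the genes above, 45.3% for those below and 48.4% for all.

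The 12 highest genes without overlap (mean log2 CPM from 2 upward) held 2 of the 4 called genes, CXCL8 and IL24, and 10 that were not called. After CXCL8 they were CXCL1 and CXCL2, neutrophil chemokines that share its receptor, CSF2 (the growth factor GM-CSF), IL24, KRT34 (a hair keratin), QPCT (glutaminyl cyclase, which caps the amino end of peptides), IL6, IL1B, the tyrosine phosphatase PTPRH, the complement protease C1R and the acute phase protein SAA2. CXCL1 stood at 4.86, 5.92 and 8.18 CPM in DMSO and 10.4, 19.6 and 20.1 CPM in HPOB, a log2 fold change of 1.41 ± 0.34 (SE) (edgeR, adjusted p = 0.199), with replicate 1 much lower than the other HPOB libraries. CXCL2 stood at 12.5, 11.3 and 12.2 CPM in DMSO and 26.2, 32.9 and 30.8 CPM in HPOB and did not pass, with a log2 fold change of 1.32 ± 0.20 (SE) (edgeR, adjusted p = 0.0605). CSF2 stood at 7.12, 7.35 and 8.73 CPM in DMSO and 14.1, 20.4 and 25.3 CPM in HPOB, a log2 fold change of 1.37 ± 0.30 (SE). KRT34 stood at 2.59, 3.04 and 4.08 CPM in DMSO and 6.77, 8.42 and 8.26 CPM in HPOB, a log2 fold change of 1.28 ± 0.20 (SE) (edgeR, adjusted p = 0.0605). SAA2 and its near-identical neighbour SAA1 can share reads, so its value of 0.99 ± 0.24 (SE) is uncertain. QPCT, PTPRH and C1R had log2 fold changes of 1.12, 1.03 and 1.01, and for C1R the HPOB libraries ran from 8.85 to 15.9 CPM against at most 6.55 CPM in DMSO.

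The 12 lowest were of mixed function, and HPOB replicate 2 was the lowest library for several. NPB, which encodes the peptide neuropeptide B, stood at 6.44, 6.46 and 9.12 CPM in DMSO and 3.76, 4.58 and 4.11 CPM in HPOB, a log2 fold change of -0.82 ± 0.21 (SE) (edgeR, adjusted p = 0.253). ABCG2, a drug efflux transporter, stood at 11.5, 11.2 and 12.4 CPM in DMSO and 6.14, 7.11 and 8.34 CPM in HPOB, a log2 fold change of -0.70 ± 0.15 (SE), with replicate 1 the lowest. The transcription factor gene CASZ1 stood at no less than 14.6 CPM in DMSO and at 9.90, 6.78 and 11.8 CPM in HPOB, where replicate 2 was the lowest. KIAA0754, which was not matched to the annotation, stood at 41.7, 36.2 and 43.9 CPM in DMSO and 35.2, 6.17 and 34.8 CPM in HPOB: replicates 1 and 3 were just below DMSO and replicate 2 was several times lower. The sulfate transporter SLC26A1 (1.56 CPM in replicate 2 against 5.01 and 5.57 CPM in the others), the mucin MUC5AC (2.35 against 5.14 and 5.93 CPM) and ZBED6 (9.64 against 22.7 and 18.5 CPM) showed the same pattern. ZBED6 lies within another gene and ANKRD36BP1 and LRRC37A4P are pseudogenes, so reads of these 3 can be shared with other genes. KIAA0754 had no position in the annotation used, so whether its reads are shared could not be judged. The remaining genes, ZBTB20, TMEM229B and PKI55, had log2 fold changes of -0.67, -0.66 and -0.66. None of the 12 lowest was called.

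**Figure D2:**
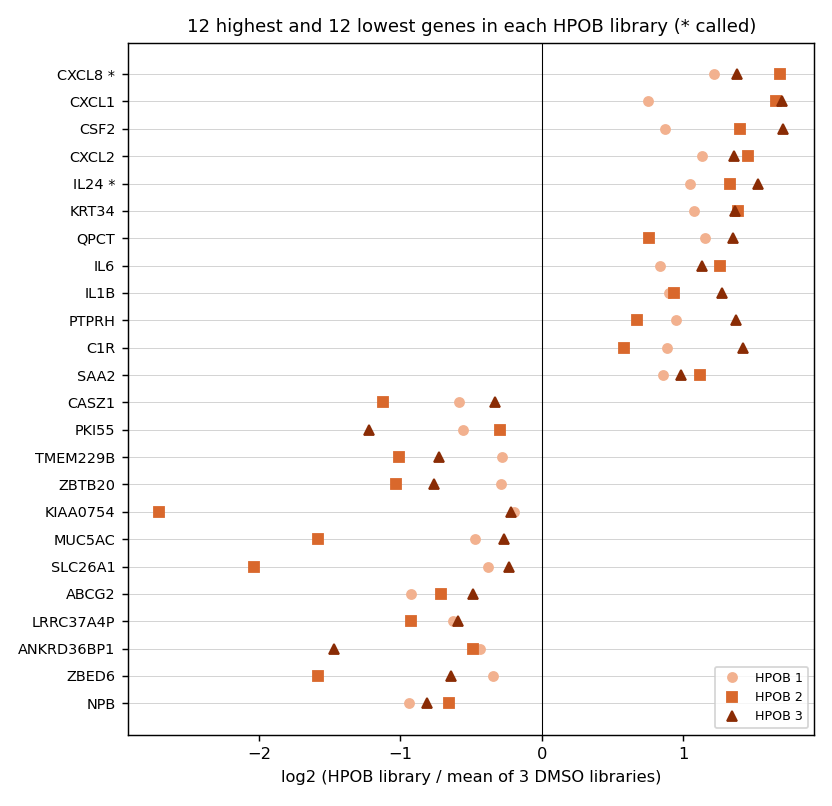
Log2 ratio of each HPOB library to the mean of the 3 DMSO libraries (x axis) for the 12 highest and 12 lowest genes with no overlap between groups, with called genes starred. The points of the 12 highest all lie right of 0, and for KIAA0754, SLC26A1, MUC5AC and ZBED6 replicate 2 (squares) lies far left of the other libraries.

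The cytokine genes were then described by role, with lists chosen with earlier results of these data known. Each list below is to be read against the 11.2% of all genes above DMSO and the 10.6% below. These shares varied with transcript length: 19.9% stood above in the shortest of 5 length groups and 3.90% in the longest. Of the 34 interleukin and interleukin receptor genes tested, 2 rose (IL1A and IL24), none fell and 32 did not pass. Of these 34, 10 stood above DMSO in all 3 HPOB libraries (29.4%, against 11.2% of all genes) and 1 below (2.94%, against 10.6%), and the median log2 fold change was 0.15, against 0.003 over all genes. Of the 10, 9 were ligands or ligand subunits (IL1A, IL1B, IL6, IL11, IL18, IL24, IL32, IL23A and EBI3) and 1 was a receptor chain (IL10RB). IL6, a pro-inflammatory cytokine, stood at 33.2, 31.4 and 31.04 CPM in DMSO and 56.7, 76.3 and 69.8 CPM in HPOB, a log2 fold change of 1.09 ± 0.18 (SE) (edgeR, adjusted p = 0.0681). IL1B, the secreted partner of IL1A at the same receptor, stood at 5.05, 4.60 and 4.97 CPM in DMSO and 9.15, 9.34 and 11.8 CPM in HPOB, a log2 fold change of 1.05 ± 0.24 (SE). EBI3, a subunit shared by the interleukin 27 and 35 heterodimers, stood at 1.28, 1.32 and 1.57 CPM in DMSO and 3.01, 2.93 and 3.28 CPM in HPOB, a log2 fold change of 1.14 ± 0.23 (SE). IL11, IL18 and IL32 also stood above every DMSO library, with log2 fold changes of 0.63, 0.44 and 0.48. These genes were named after their values were seen. Receptors of the same ligands overlapped DMSO: the log2 fold change of IL1R1 was 0.14, IL1RAP 0.02, IL6R -0.18 and IL6ST, the shared signalling chain, -0.21, with IL6R lowest in replicate 2. IL13RA1, a receptor chain for interleukins 4 and 13, was the member below DMSO in all 3 libraries, at 95.8, 106 and 99.5 CPM in DMSO and 90.04, 90.8 and 82.4 CPM in HPOB. IL33, IL27 and IL36B, with IL19 and others, had too few counts to be tested.

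Of the 15 chemokine and chemokine receptor genes tested, 1 rose (CXCL8) and none fell. In all 3 HPOB libraries, 5 stood above DMSO (33.3%, against 11.2% of all genes) and 0 below (0%, against 10.6%). The median was 0.27, or 0.16 after the length and GC trends were removed. The median longest transcript of the list was 1641 bases. The 5 were the neutrophil chemokines CXCL8, CXCL1, CXCL2 and CXCL3 and the receptor CXCR4. CXCL3 stood at 2.32, 1.56 and 1.38 CPM in DMSO and 2.35, 3.60 and 5.69 CPM in HPOB, where replicate 1 barely passed the highest DMSO library. CXCR4, the receptor of CXCL12, stood at 22.6, 21.5 and 21.2 CPM in DMSO and 25.97, 25.2 and 27.3 CPM in HPOB. The genes CXCL1, CXCL2 and CXCL3 are close in sequence, so their reads may be partly shared. CCL2, which attracts monocytes, overlapped, at 1.26, 0.808 and 1.48 CPM in DMSO and 1.38, 2.59 and 2.04 CPM in HPOB. CCL5, which attracts lymphocytes, overlapped too, at 0.655, 0.915 and 0.642 CPM in DMSO and 1.00, 0.671 and 0.389 CPM in HPOB. CXCR1 and CXCR2, the receptors of CXCL8, had too few counts to be tested.

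Of the 25 TNF superfamily ligands and receptors tested, 1 rose (TNFSF15) and none fell. Above DMSO stood 5 (20%, against 11.2% of all genes) and below it 0 (0%, against 10.6%). The median was 0.23, or 0.10 after the trends were removed. The library medians were 0.08, 0.17 and 0.39 in HPOB 1, 2 and 3, and the median was 0.07 without HPOB 2 and 3. TNFSF9, the ligand of 4-1BB, stood at 26.01, 23.4 and 25.04 CPM in DMSO and 32.02, 33.7 and 32.5 CPM in HPOB, a log2 fold change of 0.40 ± 0.10 (SE), and its receptor TNFRSF9 overlapped DMSO with a log2 fold change of 0.43. The death receptor FAS stood at 4.39, 3.55 and 4.37 CPM in DMSO and 5.26, 5.49 and 6.47 CPM in HPOB. TNFRSF25, the receptor of TNFSF15, stood at 2.51, 3.96 and 3.43 CPM in DMSO and 3.51, 4.76 and 5.49 CPM in HPOB, which overlapped. TNFRSF1A, the main TNF receptor, also overlapped, at 137, 143 and 136 CPM in DMSO and 143, 137 and 133 CPM in HPOB. TNF itself had too few counts to be tested in these cells.

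**Figure D3:**
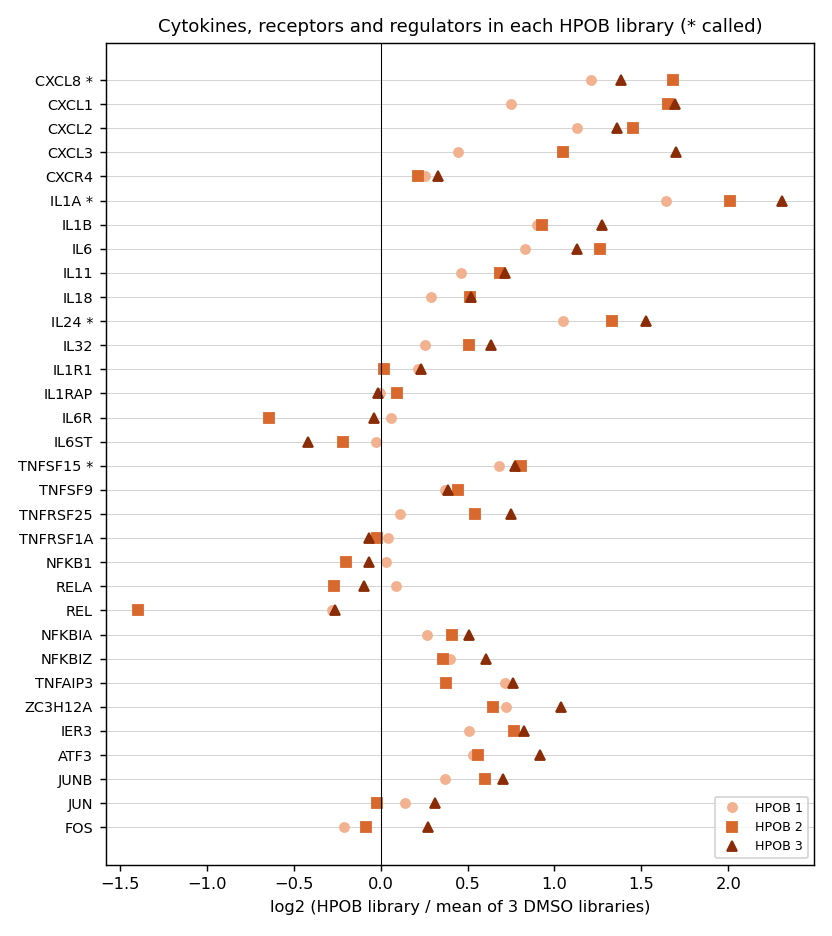
Log2 ratio of each HPOB library to the mean of the 3 DMSO libraries (x axis) for 32 ligand, receptor and regulator genes, with called genes starred. CXCL1, CXCL2, CXCL8, IL1A, IL1B, IL6 and IL24 lie right of 0 in all 3 libraries, and IL1RAP and TNFRSF1A lie near 0.

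Among the 30 NF-kB subunits and feedback regulators, none rose or fell past the threshold. In all 3 HPOB libraries, 12 stood above DMSO (40%, against 11.2% of all genes) and 1 below (3.33%, against 10.6%). The median was 0.15, with library medians of 0.14, 0.15 and 0.14 in HPOB 1, 2 and 3. The members above included feedback inhibitors that NF-kB itself induces. ZC3H12A, an RNase that degrades IL6 and other cytokine mRNAs, stood at 15.7, 15.4 and 14.5 CPM in DMSO and 25.1, 23.8 and 31.3 CPM in HPOB, a log2 fold change of 0.81 ± 0.18 (SE) (edgeR, adjusted p = 0.170). IER3 stood at 454, 404 and 463 CPM in DMSO and 624, 746 and 779 CPM in HPOB, a log2 fold change of 0.70 ± 0.15 (SE). The ubiquitin-editing enzyme TNFAIP3 (A20) stood at 19.5, 18.1 and 17.9 CPM in DMSO and 30.4, 23.99 and 31.4 CPM in HPOB, a log2 fold change of 0.63 ± 0.13 (SE). The IkB genes NFKBIZ and NFKBIA had log2 fold changes of 0.46 and 0.40, both above every DMSO library. Of the subunits, NFKB1 had -0.08 and RELA -0.09, both overlapping DMSO, and NFKB2 0.24, above it. REL was below DMSO, at 9.58, 8.08 and 10.2 CPM in DMSO and 7.61, 3.48 and 7.71 CPM in HPOB, with replicate 2 the lowest. Its longest transcript has 11255 bases.

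Of the 28 AP-1 and immediate early genes tested, none passed the threshold. Above DMSO stood 10 (35.7%, against 11.2% of all genes) and below it 0 (0%, against 10.6%), with a median of 0.16. ATF3, a stress-induced partner of JUN, stood at 15.8, 16.6 and 15.5 CPM in DMSO and 23.1, 23.6 and 30.2 CPM in HPOB, a log2 fold change of 0.68 ± 0.15 (SE) (edgeR, adjusted p = 0.170). The zinc finger factor EGR1 stood at 23.4, 20.9 and 26.4 CPM in DMSO and 34.6, 32.3 and 44.1 CPM in HPOB, a log2 fold change of 0.65 ± 0.14 (SE). JUNB had 0.56 and MYC 0.35, both above every DMSO library. By contrast, FOS and JUN overlapped DMSO, with log2 fold changes of 0.01 and 0.15. Among 23 MAPK feedback genes, 6 stood above (26.1%) and 4 below (17.4%), with a median of 0.06; the phosphatases DUSP1 and DUSP5, which switch off MAP kinases, had log2 fold changes of 0.51 ± 0.11 (SE) and 0.38 ± 0.09 (SE).

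Proteases that remodel the extracellular matrix and their inhibitors also stood higher in part. Of the 20 metalloproteinase and protease inhibitor genes tested, none passed the threshold. Above DMSO stood 8 (40%, against 11.2% of all genes) and below it 2 (10%, against 10.6%), with a median of 0.29. PLAUR, the urokinase receptor, stood at 68.4, 66.96 and 70.1 CPM in DMSO and 81.3, 98.9 and 111 CPM in HPOB. Among 37 collagen, integrin and laminin genes the counts were 4 above (10.8%) and 7 below (18.9%), with a median of -0.06 that turned to 0.04 after the trends were removed, and the members split: LAMB3, a laminin chain of epithelial basement membrane, stood at 429, 404 and 432 CPM in DMSO and 599, 475 and 620.0 CPM in HPOB, and COL12A1, a collagen with a long transcript of 11723 bases, at 349, 307 and 329.7 CPM in DMSO and 275, 173 and 257 CPM in HPOB.

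The deacetylases themselves differed little at the mRNA level. Of 18 zinc-dependent deacetylases and sirtuins, none passed the threshold, 2 stood above DMSO (11.1%, near the 11.2% of all genes) and 0 below (0%). HDAC6, the target of the compound, stood at 89.3, 86.2 and 98.4 CPM in DMSO and 95.7, 66.9 and 126 CPM in HPOB, and its log2 fold change was 0.07 ± 0.18 (SE) with a 95% interval of -0.32 to 0.47. The 3 HPOB libraries lay on both sides of DMSO, and an mRNA level does not report on inhibition of the enzyme. The nuclear class I genes HDAC1 and HDAC2 had log2 fold changes of 0.02 and 0.04, both overlapping, and HDAC3, the catalytic subunit of the NCoR complex, had 0.19 ± 0.10 (SE) and stood just above DMSO. HDAC5, a class IIa gene, had 0.29 ± 0.11 (SE). SIRT6, a nuclear deacetylase of histone H3, stood at 33.4, 35.2 and 40.4 CPM in DMSO and 41.4, 46.1 and 46.9 CPM in HPOB. HDAC4, HDAC7, HDAC8, HDAC9, HDAC10 and HDAC11 had log2 fold changes between -0.16 and 0.17, all overlapping DMSO.

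Of 19 genes known to be induced by broad deacetylase inhibitors, none passed the threshold. Above DMSO stood 12 (63.2%, against 11.2% of all genes) and below it 1 (5.26%, against 10.6%). The median of 0.20 was 0.13, 0.21 and 0.28 in HPOB 1, 2 and 3, and became 0.16 after the length and GC trends were removed. The median longest transcript of this list was 2354 bases, against 3535.5 over all genes. The metallothioneins MT2A, MT1E and MT1X, short-transcript metal-binding proteins that can share reads, had log2 fold changes of 0.60, 0.59 and 0.46. The cell cycle inhibitor CDKN1A stood at 58.6, 58.5 and 61.6 CPM in DMSO and 76.7, 71.9 and 86.97 CPM in HPOB, a log2 fold change of 0.40 ± 0.11 (SE). TUBB3 and H1F0, which broad inhibitors raise in many cell types, overlapped DMSO with log2 fold changes of 0.02 and 0.05. DHRS2, another gene such inhibitors commonly induce, was the 1 member below DMSO, at 1.39, 1.13 and 1.09 CPM in DMSO and 0.501, 0.885 and 0.778 CPM in HPOB. SYT11 had the highest value of the list, 1.98 ± 0.54 (SE), from low levels of 0.218, 0.431 and 0.321 CPM in DMSO and 0.940, 0.855 and 2.04 CPM in HPOB. DHRS2 and SYT11 were named after their values were seen.

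Folding genes of the endoplasmic reticulum stood higher as a list in each HPOB library. Of 24 folding genes tested, none passed the threshold, 15 stood above DMSO in all 3 HPOB libraries (62.5%, against 11.2% of all genes) and 0 below (0%), with a median of 0.24 and library medians of 0.19, 0.28 and 0.29. HSPA5 (BiP), the main chaperone of the compartment, stood at 2042, 1985 and 1938 CPM in DMSO and 2922, 3294 and 3418 CPM in HPOB, a log2 fold change of 0.69 ± 0.13 (SE) (edgeR, adjusted p = 0.170). HERPUD1, which takes part in the degradation of misfolded proteins, stood at 85.02, 84.7 and 79.6 CPM in DMSO and 107, 130.3 and 128 CPM in HPOB. The small proteins SDF2L1 and MANF had log2 fold changes of 0.55 and 0.54. Sensors of the unfolded protein response overlapped DMSO: ATF6 had -0.09 and ERN1 (IRE1) -0.08. Among 28 ATF4 and amino acid response genes, 12 stood above (42.9%) and 1 below (3.57%), with a median of 0.16 that was 0.09, 0.13 and 0.34 in HPOB 1, 2 and 3. CHAC1, which degrades glutathione, stood at 12.9, 14.8 and 12.6 CPM in DMSO and 16.1, 20.1 and 26.8 CPM in HPOB, and the stress factor DDIT3 (CHOP) at 26.1, 27.9 and 27.9 CPM in DMSO and 31.99, 38.1 and 51.8 CPM in HPOB, with replicate 3 the highest for both. The amino acid transporter SLC7A5 was the member below, at 794, 811 and 813 CPM in DMSO and 747, 506 and 586 CPM in HPOB.

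Among 27 cytosolic heat shock chaperones, 6 stood above (22.2%) and 1 below (3.70%), with a median of 0.05. The HSP70 genes HSPA1A and HSPA1B, which are near identical in coding sequence and can share reads, both stood above DMSO. HSPA1A stood at 42.7, 40.7 and 39.2 CPM in DMSO and 52.9, 60.8 and 65.6 CPM in HPOB, and HSPA1B at 126, 123 and 118 CPM in DMSO and 165, 187 and 178 CPM in HPOB. HSPA1L, their neighbour in the genome, had a log2 fold change of -0.86 and stood below DMSO. Tubulin, a substrate of HDAC6, showed no common direction: 4 of 31 tubulin genes and modifying enzymes stood above (12.9%) and 4 below (12.9%), with a median of 0.01 that turned to -0.04 after the trends were removed. VASH1, a tubulin carboxypeptidase, stood at 3.58, 3.02 and 3.98 CPM in DMSO and 2.10, 1.56 and 1.26 CPM in HPOB, a log2 fold change of -1.11 ± 0.30 (SE).

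MHC class II genes present antigen peptides to T cells. Of the 11 tested, none passed the threshold. Above DMSO stood 6 (54.5%, against 11.2% of all genes) and below it 0 (0%, against 10.6%). The median of 0.47 was 0.34, 0.48 and 0.76 in HPOB 1, 2 and 3, and became 0.33 after the trends were removed. The median longest transcript of the list was 1735 bases. HLA-DMA, a peptide-loading chain, stood at 11.6, 12.4 and 14.3 CPM in DMSO and 19.9, 18.2 and 22.4 CPM in HPOB, a log2 fold change of 0.66 ± 0.15 (SE) (edgeR, adjusted p = 0.182). HLA-DPA1 stood at 9.85, 11.4 and 11.9 CPM in DMSO and 16.9, 15.4 and 19.98 CPM in HPOB. HLA-DRB1 and HLA-DRB5 are near-identical copies whose reads may be shared. CIITA, the master regulator of the class, overlapped, at 7.26, 8.24 and 7.67 CPM in DMSO and 9.18, 7.26 and 8.56 CPM in HPOB, and CD74, the invariant chain, had a log2 fold change of 0.29 and overlapped too. Of 20 class I and peptide-loading genes, 7 stood above (35%) and 3 below (15%); HLA-B had 0.43 ± 0.14 (SE), while the loading factor TAPBP stood at 269.5, 269.6 and 293 CPM in DMSO and 262, 220.1 and 125 CPM in HPOB, lowest in replicate 3. Interferon-stimulated genes did not share a direction: of 39 tested, 5 stood above (12.8%) and 8 below (20.5%), with a median of -0.03. OAS1, an RNA-sensing enzyme of the interferon response, stood above DMSO at 3.33, 2.88 and 3.88 CPM in DMSO and 5.08, 4.58 and 6.49 CPM in HPOB. SAMD9L, an antiviral factor, stood below it at 22.7, 23.1 and 26.7 CPM in DMSO and 15.6, 14.6 and 16.9 CPM in HPOB.

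Cell cycle and genome maintenance genes stood lower in HPOB by small amounts. Of 38 mitosis and G2/M genes tested, none passed the threshold, 1 stood above DMSO (2.63%) and 17 below (44.7%, against 10.6% of all genes), with a median of -0.13 and library medians of -0.08, -0.09 and -0.18. CENPE, a kinetochore motor, stood at 110.3, 113 and 107 CPM in DMSO and 82.2, 90.3 and 72.5 CPM in HPOB, low in all 3 libraries. MKI67, the proliferation antigen, stood at 671, 652 and 667 CPM in DMSO and 629, 297 and 414 CPM in HPOB, where replicate 1 was close to DMSO and replicate 2 was lowest. Of 35 DNA repair genes, 1 stood above (2.86%) and 15 below (42.9%), with a median of -0.20 that was -0.08, -0.24 and -0.24 in the 3 libraries. BRCA2 stood at 40.3, 38.02 and 38.5 CPM in DMSO and 27.9, 25.9 and 27.7 CPM in HPOB, a log2 fold change of -0.52 ± 0.16 (SE) (edgeR, adjusted p = 0.359), and BRCA1 at 59.7, 55.1 and 50.9 CPM in DMSO and 45.4, 40.8 and 40.5 CPM in HPOB. Of 41 DNA replication genes, 0 stood above (0%) and 9 below (22%), with a median of -0.08. MCM4, a helicase subunit, stood at 175, 179 and 173 CPM in DMSO and 147, 147 and 137 CPM in HPOB, and UHRF1, which maintains DNA methylation, at 168, 169 and 164 CPM in DMSO and 147, 122 and 121 CPM in HPOB. Of 27 cohesin, condensin and CTCF genes, 1 stood above (3.70%) and 14 below (51.9%), with a median of -0.18; NIPBL, the cohesin loader, stood at 104, 107 and 110.5 CPM in DMSO and 96.7, 78.5 and 76.4 CPM in HPOB.

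The medians of these 4 lists were also taken after the length and GC trends were removed. The median was then -0.14 for mitosis, -0.14 for DNA repair, -0.11 for replication and -0.13 for cohesin and condensin genes. The median lengths of the longest transcripts were 3586.5, 4592, 3240 and 5233 bases in that order, against 3535.5 over all genes. With HPOB replicate 1 alone against DMSO the medians were -0.08, -0.08, -0.08 and -0.12. For the 25 acetyltransferase, bromodomain and elongation factor genes, of which 6 stood below (24%) and 1 above (4%), the median was -0.19, was -0.13 after the trends were removed and -0.04 in HPOB replicate 1 alone. CREBBP, the acetyltransferase CBP, stood at 99.4, 92.6 and 95.97 CPM in DMSO and 92.2, 48.7 and 68.8 CPM in HPOB, with replicate 2 the lowest.

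**Figure D4:**
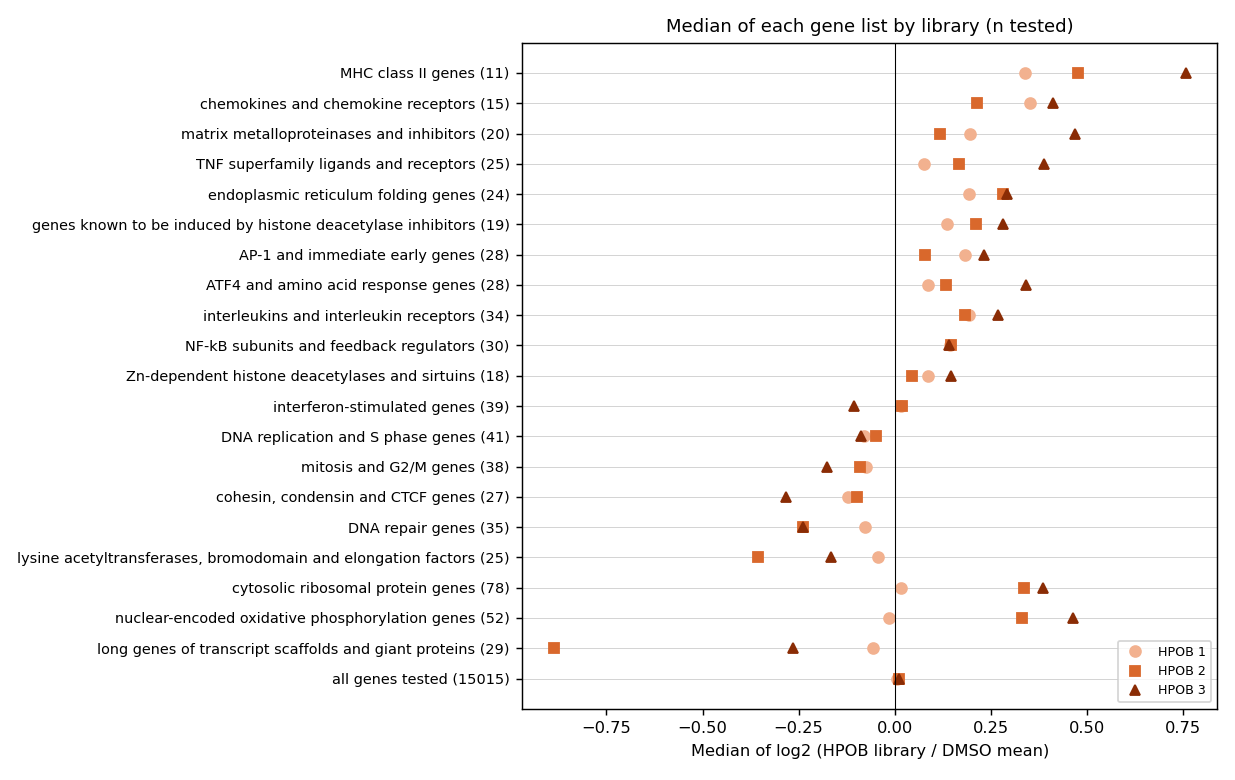
Median over the tested genes of each list of the log2 ratio of a HPOB library to the DMSO mean (x axis), with circles, squares and triangles for HPOB 1, 2 and 3 and the number of genes tested in parentheses. The interleukin, chemokine, endoplasmic reticulum folding and MHC class II lists lie right of 0 in all 3 libraries, the mitosis, replication and DNA repair lists left of 0, and the ribosomal, oxidative phosphorylation and giant-protein lists lie near 0 in HPOB 1 only.

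The transcript-length shift was measured by the median log2 ratio to the DMSO mean in 5 equal groups of the 14098 genes, ordered by longest transcript. In the shortest group the median exceeded that of the longest group by 0.03 in HPOB replicate 1, by 0.43 in replicate 2 and by 0.42 in replicate 3, and by 0.54 in Tubastatin A replicate 2. In the other libraries the difference lay between -0.06 and 0.06. In the shortest group (53 to 2033 bases) 19.9% of genes stood above DMSO in all 3 HPOB libraries and 2.87% below. In the longest group (5829 to 109224 bases) 3.90% stood above and 22.6% below. After removal of the trends the groups of genes changed in part: 1164 of the 1680 genes above (69.3%) and 1109 of the 1592 below were still without overlap. Cytosolic ribosomal protein genes, which are short, took 4.15% of the counts in HPOB replicate 1, 5.19% in replicate 2 and 5.39% in replicate 3, against 4.04% to 4.26% in DMSO and 5.72% in Tubastatin A replicate 2.

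**Figure D5:**
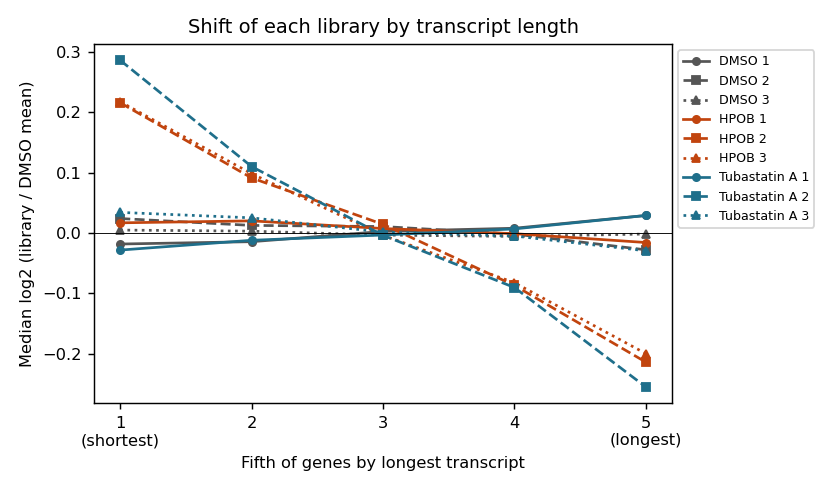
Median log2 ratio of each library to the mean of the DMSO libraries (y axis) in 5 equal groups of genes from shortest to longest transcript (x axis). HPOB 2, HPOB 3 and Tubastatin A 2 slope down from 0.22 or higher to -0.20 or lower, and the other 6 libraries stay between -0.03 and 0.03.

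Gene lists at the ends of the length range split by library in the same way. Of 78 ribosomal protein genes, 21 stood above DMSO (26.9%) and 0 below (0%), with a median of 0.25 that was 0.02, 0.34 and 0.39 in HPOB 1, 2 and 3, and was 0.15 overall after the trends were removed. RPL41 stood at 243, 236 and 247 CPM in DMSO and 253, 302 and 463 CPM in HPOB, highest in replicate 3. Of 52 nuclear-encoded oxidative phosphorylation genes, 14 stood above (26.9%) and 0 below (0%), and the median of 0.28 was -0.02, 0.33 and 0.46 by library, or 0.11 overall after removal. COX7C, a subunit of cytochrome c oxidase, stood at 156, 168 and 155 CPM in DMSO and 176, 221 and 248 CPM in HPOB. Of 29 genes of giant scaffold proteins, 0 stood above (0%) and 11 below (37.9%), and the median of -0.37 was -0.06, -0.89 and -0.26, or -0.18 overall after removal. AHNAK, a scaffold protein with a transcript of 18787 bases, stood at 2433, 2190.4 and 2303 CPM in DMSO and 2056, 1051 and 1648 CPM in HPOB. EGFR, with 9821 bases, stood at 174, 146 and 159 CPM in DMSO and 162, 60.1 and 148 CPM in HPOB, low in replicate 2 alone. Of 11312 genes examined, 80 were lower by more than 1 on the log2 scale in HPOB replicate 2 while the other HPOB libraries stayed within 0.5 of DMSO, and their median transcript length was 9536 bases. In replicate 3 there were 50 such genes with a median of 5541.5 bases, and in replicate 1 there were 0. The cause of the shift was not tested.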

How the data were processed

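RNA from MDA-MB231 cells was sequenced in 3 libraries each of DMSO, HPOB and Tubastatin A. The authors deposited raw counts per gene symbol in 1 file per library, and per the submitters' processing notes the tools named are Trim Galore 0.6.7, STAR 2.7.9a, featureCounts 2.0.3 and DESeq2 1.30.1 with GRCh38. No source used here states the annotation or strand setting, so overlapping and antisense genes cannot be separated. Among counts of 1 to 50, 64.6% to 71.3% were even in each library, so a count may be a read rather than a fragment. No mitochondrial gene symbol was listed.

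Counts were scaled by TMM and tested with edgeR 4.0.16 (quasi-likelihood F test, robust) in R 4.3.3 over the 9 libraries, with p-values adjusted by Benjamini-Hochberg over 15015 genes and called under 0.05. The standard error is the log2 fold change divided by the square root of F. No overlap was judged on log2 CPM with a prior count of 2. Transcript length (longest transcript) and GC content came from GENCODE release 29, matched by symbol for 23924 of 26485 symbols, and their trends were removed per library with natural splines of 3 degrees of freedom. The comparison, genes and lists were chosen with earlier results of these data known. The genes named by rule were those called, the 12 highest and 12 lowest without overlap (mean log2 CPM from 2 upward), and some of the 5 members of each list with the largest change. Not all of those 5 are described, so a named member need not have the largest change of its list. Other members were named by role, after their values were seen. Deviations of same-numbered libraries from their group means had correlations from -0.17 to 0.21 over 9 pairs, both ends from HPOB with Tubastatin A. For DMSO with HPOB the correlations were 0.04, 0.08 and 0.06 for replicates 1, 2 and 3. The numbers are not known to pair the samples and were not treated as pairs. Alternatives used DESeq2 1.42.0 and limma 3.58.1. The code was tested on simulated data.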

Additional observations from a re-analysis of the deposited data

How the results depend on the processing

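The count of genes called for HPOB against DMSO, 4 in the design used, ranged from 0 to 4 when 1 HPOB or DMSO library was left out. Leaving out 1 Tubastatin A library alone, which is also in the fit, was not assessed for this comparison. It was 121 with the DESeq2 Wald test (102 higher, 19 lower), 54 with limma voom and library quality weights (51 higher, 3 lower), 15 with the 2 groups compared alone, 14 without a filter on low counts, 2 with a mean CPM of at least 5 (CXCL8 and TNFSF15) and 14 with GC and length trends removed. It was 0 without HPOB replicates 2 and 3, and 20 without HPOB replicate 3 and Tubastatin A replicate 2. With the replicate block it was 7, adding CXCL2, IL6 and KRT34, although the numbers are not known to pair the samples; 6 of 6 HPOB and DMSO libraries correlated best with their own number, a hint from the data and not the design. 2 further settings were chosen after seeing the data: 198 genes were called for HPOB against DMSO, and 2 for HPOB against Tubastatin A, without HPOB replicates 2 and 3 and Tubastatin A replicate 2, and 9 were called for HPOB against DMSO with trends removed and without HPOB replicate 2. The cause of these differences was not tested, other than that some settings hold fewer genes or libraries.

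The 4 genes kept their direction in every alternative run. CXCL8 had a log2 fold change of 1.20 to 1.54 and was called in 14 of 19 alternatives, TNFSF15 0.68 to 0.89 in 13 of 19, IL24 1.03 to 1.43 in 12 of 19 and IL1A 1.66 to 2.19 in 12 of 18. Their highest adjusted p was 0.999, without HPOB replicates 2 and 3. The alternatives gave 5419 values for 288 other genes, from the named genes and the lists, none of them called in the main fit. Of these values, 167 were called in the alternative. Without a call, 540 moved by at least the main SE and 4712 stayed within it. A reversal with a call needed a call in the opposite direction, and 0 values had one, while 219 changed sign without a call.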

Other observations

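The lists below are set against all genes tested, of which 11.2% stood above DMSO in all 3 HPOB libraries and 10.6% below. Of 26 NRF2 targets, genes of the oxidative stress response, 2 stood above (7.69%) and 2 below (7.69%), with a median log2 fold change of 0.07 that was 0.002 after length and GC trends were removed and -0.01 without HPOB replicates 2 and 3. Of 34 proteasome subunits, 3 stood above (8.82%) and 2 below (5.88%), and of 16 BCL2 family genes, 2 stood above (12.5%) and 1 below (6.25%). Of 27 autophagy receptor and aggresome genes, a process in which HDAC6 takes part, 7 stood above (25.9%) and 0 below (0%), with a median of 0.01. Of 28 actin and cortactin genes, 5 stood above (17.9%) and 1 below (3.57%).

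Metabolic lists differed by small amounts. Of 25 cholesterol synthesis genes, 5 stood above (20%) and 0 below (0%), with a median of 0.12 that was 0.05 after length and GC trends were removed. Of 17 fatty acid synthesis genes, 0 stood above (0%) and 3 below (17.6%), with a median of -0.09 that was -0.03 after removal. Of 33 glycolysis and hypoxia genes, 7 stood above (21.2%) and 3 below (9.09%). Of 25 p53 targets, 6 stood above (24%) and 0 below (0%), with a median of 0.06 that was 0.004 after removal.

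Growth factor and adhesion genes split. Of 12 EGF receptor family genes and ligands, 4 stood above (33.3%) and 2 below (16.7%). The ligand AREG stood at 64.9, 71.1 and 67.4 CPM in DMSO and 84.0, 102 and 109 CPM in HPOB, without overlap. Of 18 EMT regulators and cadherins, 4 stood above (22.2%) and 1 below (5.56%). TGFBI, a secreted matrix protein induced by TGF-beta, stood at 66.0, 70.1 and 69.9 CPM in DMSO and 91.6, 87.0 and 99.2 CPM in HPOB, also without overlap. Of 8 replication-dependent histone genes, 0 stood above (0%) and 2 below (25%). Their median of -0.16 was -0.34 after length and GC trends were removed and -0.36 without HPOB replicates 2 and 3. The median longest transcript of this list was 771.5 bases, and only 12 of its 60 symbols were among the deposited counts. No gene of these lists was called.

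Genes outside the named rule, chosen after their values were seen, include SECTM1 and RCAN1. SECTM1, a secreted and transmembrane protein, stood at 9.23, 8.62 and 9.02 CPM in DMSO and 15.977, 14.3 and 15.7 CPM in HPOB, a log2 fold change of 0.78 ± 0.12 (SE) (edgeR, adjusted p = 0.0605). RCAN1, an inhibitor of calcineurin, stood at 111, 114 and 108 CPM in DMSO and 145, 168 and 157 CPM in HPOB. Both were called when the trends were removed.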
